A study of Cricetulus griseus with 6 samples.

Results

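The collagen genes of CHO-T cells were examined after silencing of *Xbp1*. A row was taken as a collagen gene when its symbol was Col, a type number, the letter a and a chain number. The pattern matched 34 of the 27873 rows. One of them, *Col4a3bp*, is listed in RefSeq as *Cert1*, a ceramide transfer protein, and was set aside, which left 33 collagen genes. The CHO-T line was made from Chinese hamster ovary (CHO) cells by retroviral transfer of mouse T-cadherin cDNA and puromycin selection, and whether it is 1 clone is not stated in the sources used here. All 6 libraries came from these cells, 48 h after transfection with negative control siRNA (3 libraries) or *Xbp1* siRNA (3 libraries). The values are FPKM, fragments scaled to the length of the transcript and to the size of the library. Levels of different genes can therefore be set side by side per length. Whether that size is the mapped fragments or another scaling factor was not checked.

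Collagens are matrix proteins made of chains that wind around each other along repeats that begin with glycine. The chains are hydroxylated, glycosylated and folded in the endoplasmic reticulum (ER), exported, trimmed and crosslinked outside the cell. Fibrillar types form the fibres of skin, bone and cartilage, FACIT types sit on the surface of fibrils, and basement membrane types form sheets and their anchors. Network-forming types build lattices, beaded filament types form microfibrils, and transmembrane types stay in the plasma membrane. XBP1 is a transcription factor of the unfolded protein response that widens the capacity of the ER for secretory proteins.

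The silenced gene itself was looked at before any other. *Xbp1* stood at 25.96, 26.2 and 28.4 FPKM in the control libraries and at 2.18, 2.11 and 1.39 FPKM in those with *Xbp1* siRNA. Between 15109 and 15545 rows were above 0 in each library. The steps of low values put the library size used for scaling between 94.0% and 116% of that of control replicate 1. Whether the replicates were separate cultures is not stated in the labels, and the study's methods speak of independent biological experiments in general without naming these libraries, so the p-values below measure the spread between these libraries, which may be technical. The cells carried the mesenchymal marker *Vim*, at 377 ± 10.7 FPKM (n = 3, SD) in the control libraries. Of the ovarian granulosa and theca markers that were matched, *Fshr* was listed at 0, *Amh*, *Inha* and *Star* had means of 2.69, 2.63 and 0.822 FPKM, and the list summed to between 5.32 and 7.10 FPKM in the control libraries.

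Of the collagen genes, 1 in 3 passed the limit for testing. Of the 33, 7 were listed at 0 in all 6 libraries, 15 were above 0 in at least 1 library but had a mean under 0.1 FPKM, and 11 had a mean of at least 0.1 FPKM and were compared between the conditions. Those 11 are 33.3% of the collagen genes, whereas 51.5% of all rows passed the same filter. The share listed at 0 in all libraries was 21.2% of the collagen genes and 36.9% of all rows, so more of the collagen genes lay between 0 and the filter. The 7 listed at 0 were *Col1a1* and *Col1a2*, the chains of type I collagen, which is the main collagen of fibroblasts and bone, together with *Col9a1*, *Col6a2*, *Col6a5*, *Col28a1* and *Col13a1*. Of 20 housekeeping genes looked for, 17 were matched, and none of these was listed at 0 in all libraries. This does not show how complete the gene models of the 7 collagen genes are, which was not tested. A further 12 collagen symbols of the 45 looked for, among them *Col5a1*, *Col5a2*, *Col4a5* and *Col6a3*, matched no row and are not analysed here, and rows named only by a LOC number were not assigned to a gene.

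One gene made up most of the collagen signal. *Col8a1*, a chain of the short network-forming type VIII collagen of vessel walls and of the membrane under the corneal endothelium, held 80.1 ± 1.13% (n = 3, SD) of the summed collagen FPKM in the control libraries. *Col16a1*, a FACIT collagen, came next with 11.1 ± 0.655% (n = 3, SD). The fibrillar genes together held 3.53 ± 0.536% and the basement membrane genes 2.81 ± 0.117% (n = 3, SD). By mean FPKM over the 6 libraries *Col8a1* ranked 1515 among all rows and *Col16a1*, the next collagen, 6696.

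With *Xbp1* siRNA the collagen signal was smaller and differently composed. The summed collagen FPKM was 127, 124 and 129 in the control libraries and 74.8, 71.8 and 72.5 after silencing. The conditions did not overlap, and the mean after silencing was 0.578 of the control mean. The FPKM of all rows also summed to less after silencing, 593487 to 600986 against 646651 to 666267 in the controls. As a share of that total, the collagen sum was 0.0193% in the controls and 0.0122% after silencing, a ratio of 0.635. Without *Col8a1* the sum was 25.1 ± 1.59 in the controls and 24.6 ± 0.979 after silencing (n = 3, SD), and the libraries overlapped. The share of *Col8a1* was 66.3 ± 0.618% (n = 3, SD) after silencing. The FACIT genes held 11.99 ± 0.633% of the sum in the controls and 20.2 ± 1.27% after silencing (n = 3, SD). The summed FPKM of the FACIT genes was 15.2 ± 0.962 in the controls and 14.8 ± 1.25 after silencing (n = 3, SD), with overlapping libraries, so the class held a larger share of a smaller sum. The summed FPKM of the basement membrane genes was 3.55 ± 0.217 and 6.04 ± 0.283, and that of the fibrillar genes 4.46 ± 0.682 and 2.42 ± 0.127 (n = 3, SD), both without overlap. For the basement membrane genes the share after silencing was 8.28 ± 0.533%, and for the fibrillar genes it was 3.31 ± 0.193% (n = 3, SD). Among the shares of these 3 classes, the libraries of the conditions overlapped for the fibrillar genes alone.

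**Figure D1:**
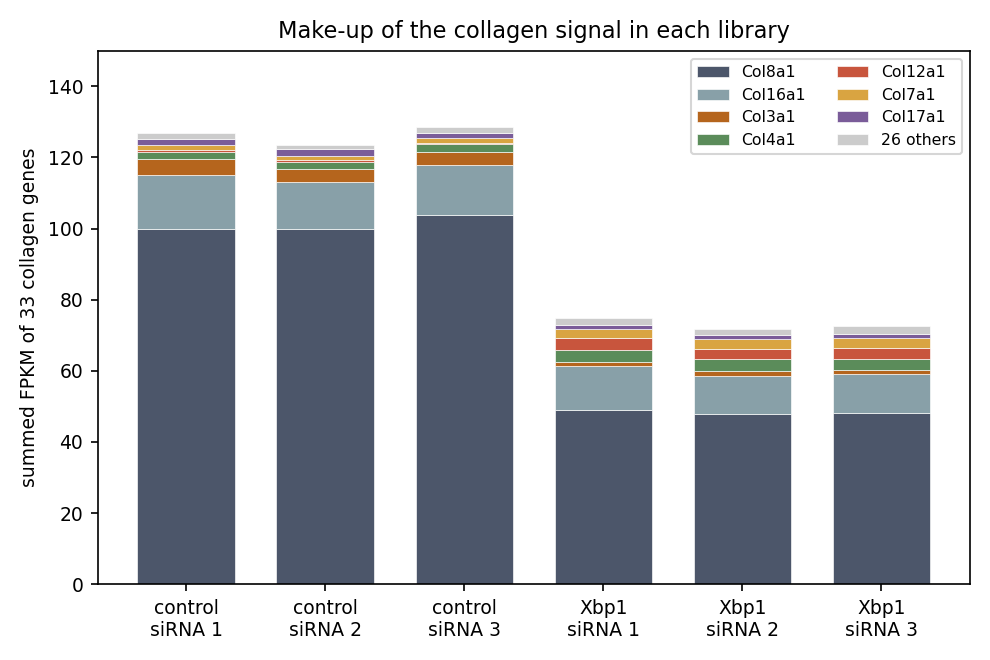
Summed FPKM of the 33 collagen genes in each of the 6 libraries, as stacked bars with the most abundant genes in colours of their own. The 3 control bars reach 124 to 129 FPKM and the 3 bars with Xbp1 siRNA 71.8 to 74.8 FPKM, and the block of Col8a1 is the largest in every bar.

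Gene by gene, limma was run on log2(FPKM + 0.1), a scale that understates changes of weakly expressed genes. P-values were adjusted over the 14361 rows tested, and a gene was called when its adjusted p was under 0.05 and its log2 fold change at least 1 in size. Of the 11 collagen genes tested, *Col12a1* and *Col27a1* were called higher and *Col3a1* and *Col8a1* lower. Over all rows tested, 5.19% were called, 2.69% higher and 2.5% lower. By adjusted p alone, 4 collagen genes were higher and 4 lower, where 40.4% of all rows tested passed. For 10 of the 11 genes no library lay within the range of the other condition, against 51.8% of all rows tested. The median log2 fold change of the 11 genes was −0.14 and that of all rows tested 0.01, with 5 of the genes above 0 and 6 below.

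**Figure D2:**
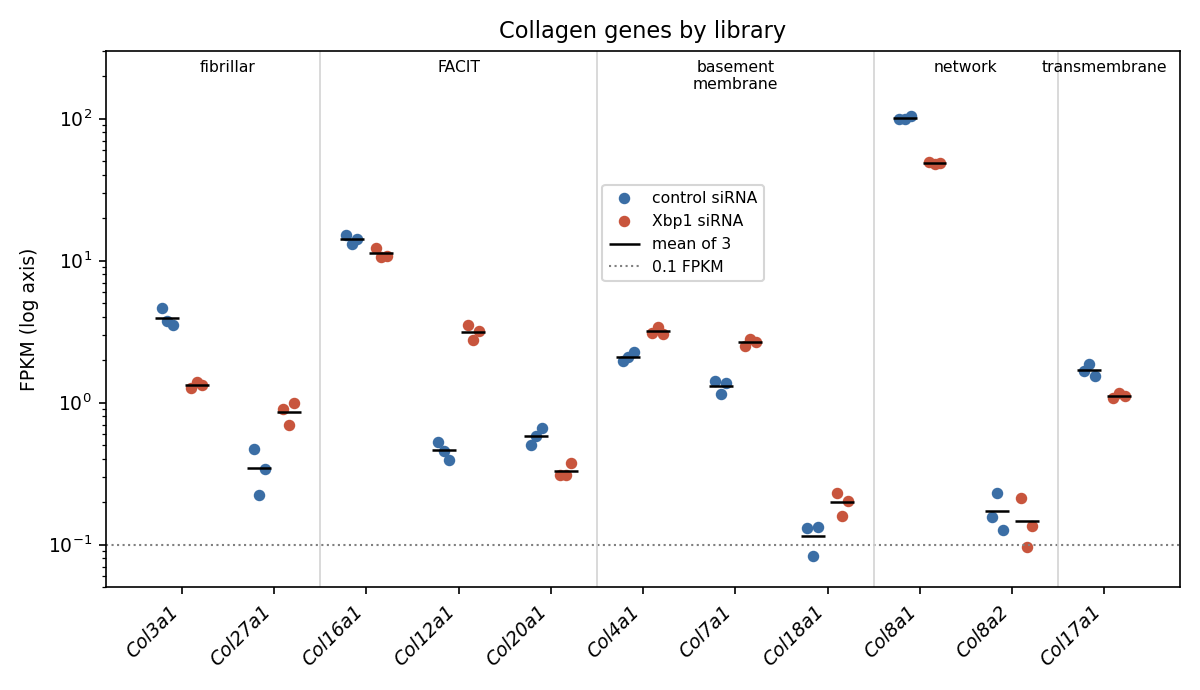
FPKM of the 11 collagen genes tested, on a log axis, by class, with 1 point per library and a line at the mean of 3. The points of the conditions are apart for 10 genes and mixed for Col8a2, and Col8a1 lies above all others.

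Of the 9 fibrillar genes matched, 2 were tested, and these were called in opposite directions. *Col3a1*, whose product forms homotrimers in the fibres of skin, vessels and hollow organs, had 4.63, 3.75 and 3.51 FPKM with control siRNA and 1.27, 1.40 and 1.33 FPKM after silencing. Every library with *Xbp1* siRNA lay under every control library. Its values fell on whole multiples of a step, which put 206, 157 and 153 reads behind the control values and 58, 61 and 69 behind the others. *Col3a1* fell to 33.7% of the control (log2 fold change −1.49, standard error 0.15, 95% interval −1.84 to −1.15, limma adjusted p = 2.12e-04).

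*Col27a1*, a fibrillar collagen of developing cartilage, had 0.474, 0.222 and 0.339 FPKM with control siRNA and 0.900, 0.697 and 0.986 FPKM after silencing. The conditions did not overlap, but the highest control library stood more than 2-fold above the lowest. The gene rose 2.50-fold (log2 fold change 1.14, standard error 0.30, 95% interval 0.43 to 1.85, limma adjusted p = 0.0196). The call was lost without control replicate 2, at a log2 fold change of 0.93 (limma adjusted p = 0.0514), and without *Xbp1* siRNA replicate 1 or 3 (limma adjusted p = 0.0619 and 0.0709). It was also lost with a pseudocount of 1, where the log2 fold change was 0.47.

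Of the other fibrillar genes, *Col11a2*, a minor chain of cartilage fibrils, stood just under the limit for testing, with a mean of 0.0867 FPKM, while the weakest genes above it, *Col18a1* and *Col8a2*, had 0.157 and 0.160 FPKM. *Col11a2* had 5, 2 and 3 reads in the controls against 8, 6 and 6 after silencing. *Col24a1* had 1, 3 and 4 against 1, 3 and 1 reads. *Col2a1*, the main chain of cartilage fibrils, had 1, 1 and 0 reads against 2, 2 and 1, too few to show a difference. *Col11a1* had 1 read in each of 2 libraries with *Xbp1* siRNA, and *Col5a3* lay between 0.0203 and 0.108 FPKM.

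The largest change among the collagen genes tested was in the FACIT class. *Col12a1*, a homotrimeric collagen that lies on the fibrils of tendon, ligament and muscle, had 0.527, 0.455 and 0.397 FPKM with control siRNA and 3.49, 2.76 and 3.18 FPKM after silencing. All 3 libraries with *Xbp1* siRNA stood far above the controls. The gene rose 6.85-fold in mean FPKM (log2 fold change 2.54, standard error 0.19, 95% interval 2.103 to 2.97, limma adjusted p = 4.92e-05), and it was called under each alternative run. With a pseudocount of 1 its log2 fold change was 1.503.

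*Col16a1*, a FACIT collagen of skin and cartilage, had 15.1, 13.1 and 14.1 FPKM with control siRNA and 12.3, 10.6 and 10.7 FPKM after silencing. The gap between the conditions was narrower than the range within either. The gene fell to 79.6% of the control (log2 fold change −0.33, standard error 0.08, limma adjusted p = 0.0167), which is under the fold limit. Without control replicate 1, *Xbp1* siRNA replicate 2 or *Xbp1* siRNA replicate 3 its limma adjusted p was 0.0514, 0.0561 and 0.0594.

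*Col20a1*, another FACIT collagen, had 0.498, 0.582 and 0.657 FPKM with control siRNA and 0.308, 0.310 and 0.377 FPKM after silencing. These are 41, 45 and 53 reads against 26, 25 and 36. The conditions did not overlap, but the log2 fold change −0.65 (95% interval −1.26 to −0.05) did not pass the test over all rows (limma adjusted p = 0.0832). It passed when the variance prior had no trend with expression (limma adjusted p = 0.0102). *Col9a2* and *Col9a3*, chains of the type IX collagen that coats cartilage fibrils, had at most 2 reads and 1 read in any library.

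The basement membrane genes tested had higher means with *Xbp1* siRNA, and 2 of the 3 passed by adjusted p, where 20.2% of all rows were higher. *Col7a1*, whose product forms the fibrils that anchor the epidermis to the dermis, had 1.41, 1.16 and 1.38 FPKM with control siRNA and 2.51, 2.79 and 2.65 FPKM after silencing. The conditions were well apart. The gene rose 2.01-fold in mean FPKM (log2 fold change 0.96, standard error 0.15, 95% interval 0.62 to 1.30, limma adjusted p = 0.00167), just under the fold limit. It passed that limit with a pseudocount of 0.01 and without control replicate 1, at 1.01 and 1.01 on the log2 scale.

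*Col4a1*, a chain of type IV collagen, the main network of basement membranes, had 1.97, 2.098 and 2.26 FPKM with control siRNA and 3.11, 3.42 and 3.03 FPKM after silencing. All libraries with *Xbp1* siRNA lay above all control libraries. The gene rose 1.51-fold (log2 fold change 0.57, standard error 0.12, limma adjusted p = 0.00835). Its usual partner chain is encoded by *Col4a2*, the neighbouring gene in the RefSeq gene table of the Chinese hamster. *Col4a2* was listed at 0 in 5 libraries and at 0.0291 FPKM in *Xbp1* siRNA replicate 3. How complete the gene model behind the *Col4a2* row is was not tested.

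*Col18a1*, the source of endostatin, had 0.130, 0.0831 and 0.133 FPKM with control siRNA and 0.232, 0.159 and 0.202 FPKM after silencing, the lowest mean of the genes tested. Its log2 fold change 0.47 (95% interval −0.39 to 1.33) did not pass (limma adjusted p = 0.354), although the libraries did not overlap. *Col15a1*, a close relative of *Col18a1*, was listed above 0 in control replicate 1 alone, at 0.0210 FPKM.

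**Figure D3:**
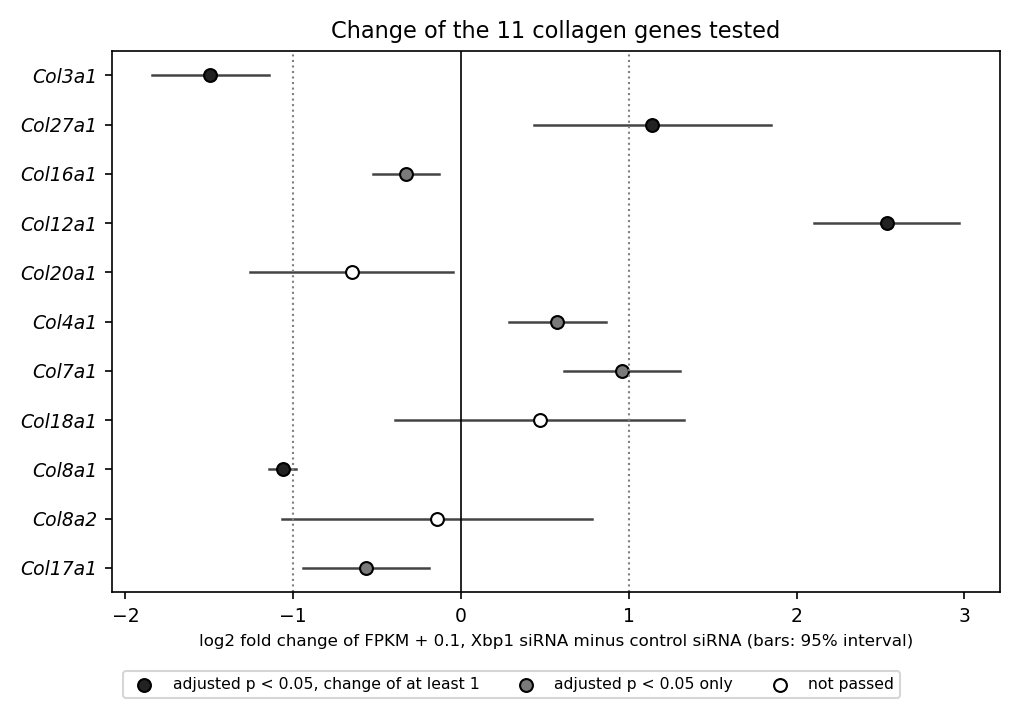
Log2 fold change of FPKM + 0.1 of the 11 collagen genes tested, Xbp1 siRNA minus control siRNA, with 95% intervals from limma and dotted lines at the fold limit of 1 in either direction. Black points are called, grey points passed by adjusted p alone and white points did not pass. Col12a1 lies furthest to the right at 2.54 and Col3a1 furthest to the left at −1.49.

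Within the network-forming class, *Col8a1* was the most abundant collagen in every library, and its replicates lay close together. It had 99.9, 99.9 and 104 FPKM with control siRNA and 49.1, 47.95 and 48.3 FPKM after silencing. It fell to 47.9% of the control (log2 fold change −1.06, standard error 0.03, 95% interval −1.14 to −0.98, limma adjusted p = 1.82e-06). The change lies close to the fold limit, and after quantile normalization it was −0.99, so that the gene was then not called although its adjusted p stayed under 0.05. *Col8a2*, the other chain of type VIII collagen, had 0.156, 0.232 and 0.127 FPKM with control siRNA and 0.213, 0.0954 and 0.134 FPKM after silencing. These are 3 to 7 reads a library, the libraries overlapped, and the log2 fold change −0.14 (95% interval −1.07 to 0.78) was not distinguishable from 0 at this depth. *Col10a1*, a collagen of hypertrophic cartilage, had 1 read in each of 2 libraries with *Xbp1* siRNA and 0 in the others.

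Among the transmembrane genes, *Col17a1*, which ties basal keratinocytes to the basement membrane at hemidesmosomes, was the only member tested. It had 1.68, 1.87 and 1.54 FPKM with control siRNA and 1.07, 1.16 and 1.11 FPKM after silencing. These are 81, 85 and 73 reads against 53, 55 and 62, and the conditions did not overlap in FPKM or in reads. It fell to 65.5% of the control (log2 fold change −0.56, standard error 0.16, limma adjusted p = 0.0264). Over the fits that leave out a library its limma adjusted p ranged from 0.0406 to 0.0877 and was under 0.05 only without control replicate 3. It was also above 0.05 when rows under a mean of 1 FPKM were dropped (0.0556, limma) and with no filter (0.0529, limma). *Col23a1* lay between 0 and 0.0681 FPKM, and *Col25a1* had 1 read in each of 2 libraries, 1 of each condition.

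None of the beaded filament genes reached the limit for testing. *Col6a1*, a chain of the type VI microfibrils found around many cells, had 2, 0 and 1 reads with control siRNA against 0, 1 and 2, and its neighbour and partner *Col6a2* was listed at 0 in every library. *Col6a6* had 1 to 4 reads a library, and *Col26a1* had 1 read in each of 2 libraries, so no difference in this class was detectable at this depth.

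Ratios between collagen genes were also taken within each library. The pairs given here were chosen after the values were seen. *Col3a1* over *Col12a1* was 8.78, 8.24 and 8.84 with control siRNA and 0.364, 0.505 and 0.419 after silencing, so the order of these 2 levels was turned. *Col7a1* over *Col17a1*, an anchoring fibril gene over a hemidesmosome gene, was 0.841, 0.618 and 0.895 with control siRNA and 2.34, 2.40 and 2.40 after silencing, and this order was turned as well. *Col8a1* stayed above *Col16a1*, by 7.21 times on average in the controls and 4.34 times after silencing.

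The genes that build, carry and bind collagen were looked at in 5 lists of 59 genes, of which 55 were matched by symbol and 39 tested. *Loxl4* and *Dcn* were called higher and *Tmem38b* lower, where 5.19% of all rows tested were called. By adjusted p alone 18 were higher and 9 lower, and 12 did not pass. Of all rows tested, 20.2% were higher and 20.2% lower by adjusted p, or 40.4% in either direction, and the counts of each list below stand beside these shares. The median log2 fold change was 0.13, beside 0.01 for all rows tested. Unlike most collagen chains, many of these genes were abundant, up to a mean of 465 FPKM for *Itgb1*, the shared beta chain of the collagen-binding integrins.

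Of the enzymes that modify collagen chains, 13 were tested, 6 of which were higher and 2 lower by adjusted p, beside 20.2% of all rows in each direction. *Plod2*, the lysyl hydroxylase of the chain ends, had 16.8, 18.5 and 19.1 FPKM with control siRNA and 30.4, 35.2 and 32.6 FPKM after silencing (log2 fold change 0.85, limma adjusted p = 1.08e-04). *Crtap*, a partner of prolyl 3-hydroxylase, had 57.1, 57.2 and 55.6 FPKM against 106, 98.5 and 103 FPKM (log2 fold change 0.85). For both, the conditions were far apart. The prolyl 4-hydroxylase subunits *P4ha3* and *P4ha2* had log2 fold changes of 0.58 and 0.43 and also passed, while *P4ha1*, the most abundant alpha subunit with a mean of 47.2 FPKM, had 0.09 and did not pass (limma adjusted p = 0.0982). *P3h3*, a prolyl 3-hydroxylase, fell by 0.40 on the log2 scale, and *P4hb*, the protein disulfide isomerase that is the other subunit of prolyl 4-hydroxylase, fell by 0.21. *Ppib*, the most abundant of the list with a mean of 464 FPKM, had a log2 fold change of 0.08 and did not pass (limma adjusted p = 0.0820). Quantile normalization changed both results, with *P4hb* at −0.04 (limma adjusted p = 0.232) and *Ppib* at 0.33 (limma adjusted p = 2.45e-04) on the log2 scale. *Ppib* also passed without control replicate 2, at a log2 fold change of 0.11 (limma adjusted p = 0.0408).

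Of the genes for folding and export, 11 were tested, 4 of which were higher and 4 lower by adjusted p (all rows, 20.2% in each direction). *Tmem38b*, an ER cation channel whose loss causes brittle bones, had 33.6, 33.9 and 36.4 FPKM with control siRNA and 13.3, 14.9 and 12.7 FPKM after silencing. It fell by 1.34 on the log2 scale (standard error 0.07, limma adjusted p = 1.17e-05), the largest decrease in these lists that passed. *Serpinh1*, the collagen chaperone HSP47, fell by 0.42 from 471 ± 8.78 to 353 ± 13.1 FPKM (n = 3, SD), and *Sparc*, a collagen-binding matrix protein, fell by 0.59. *Fkbp10*, a prolyl isomerase for procollagen, and *Mia3*, the ER exit site receptor for procollagen, both passed, with log2 fold changes of 0.37 and 0.34.

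Of the genes for propeptide cleavage and crosslinking, 9 were tested, 5 of which were higher and 1 lower by adjusted p, against 20.2% of all rows in either case. *Loxl4* and *Loxl1*, both lysyl oxidases, went opposite ways. *Loxl4* had 14.8, 15.0 and 15.1 FPKM with control siRNA and 31.1, 30.8 and 31.1 FPKM after silencing (log2 fold change 1.05, standard error 0.04, limma adjusted p = 4.63e-06). *Loxl1* had 55.6, 50.1 and 51.4 FPKM against 32.8, 27.2 and 28.8 FPKM and fell by 0.82 on the log2 scale. Neither gene's libraries overlapped between the conditions. *Pcolce*, which enhances removal of the C-terminal propeptide of fibrillar collagens, rose from 78.7 ± 3.74 to 147 ± 6.14 FPKM (n = 3, SD). *Bmp1*, the protease that removes this propeptide, had a log2 fold change of 0.24 and passed. *Adamts2* and *Adamts14*, which cut the N-terminal propeptide, were listed at 0 in every library, while *Adamts3*, which does the same, had 1.55 ± 0.107 FPKM against 1.81 ± 0.222 FPKM (n = 3, SD) and did not pass.

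Of the collagen receptors, 4 were tested and all passed by adjusted p, as did 40.4% of all rows, and none passed the fold limit. *Itgb1* fell by 0.63 on the log2 scale, from 565 ± 3.86 to 365 ± 6.53 FPKM (n = 3, SD). *Ddr2* and *Ddr1*, receptor tyrosine kinases that are activated by collagen, went opposite ways. *Ddr2* had 151, 162 and 165 FPKM with control siRNA and 103, 110 and 108 FPKM after silencing, and *Ddr1* had 13.8, 13.3 and 14.2 FPKM against 24.0, 19.5 and 23.0 FPKM. *Itga1*, an alpha chain that binds collagen, had a log2 fold change of 0.60 (limma adjusted p = 0.0250).

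Of the collagen-binding proteoglycans, *Dcn* alone was called. It encodes decorin, which binds fibrils. *Dcn* had 6.32, 6.81 and 5.98 FPKM with control siRNA and 21.8, 22.8 and 22.0 FPKM after silencing, and rose 3.49-fold (log2 fold change 1.79, standard error 0.07, limma adjusted p = 3.78e-06). *Prelp* had 0.466, 0.198 and 0.0951 FPKM against 0.0606, 0.0633 and 0.0535 FPKM and did not pass (limma adjusted p = 0.147). *Lum*, *Kera* and *Ogn* were listed at 0 in every library.

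**Figure D4:**
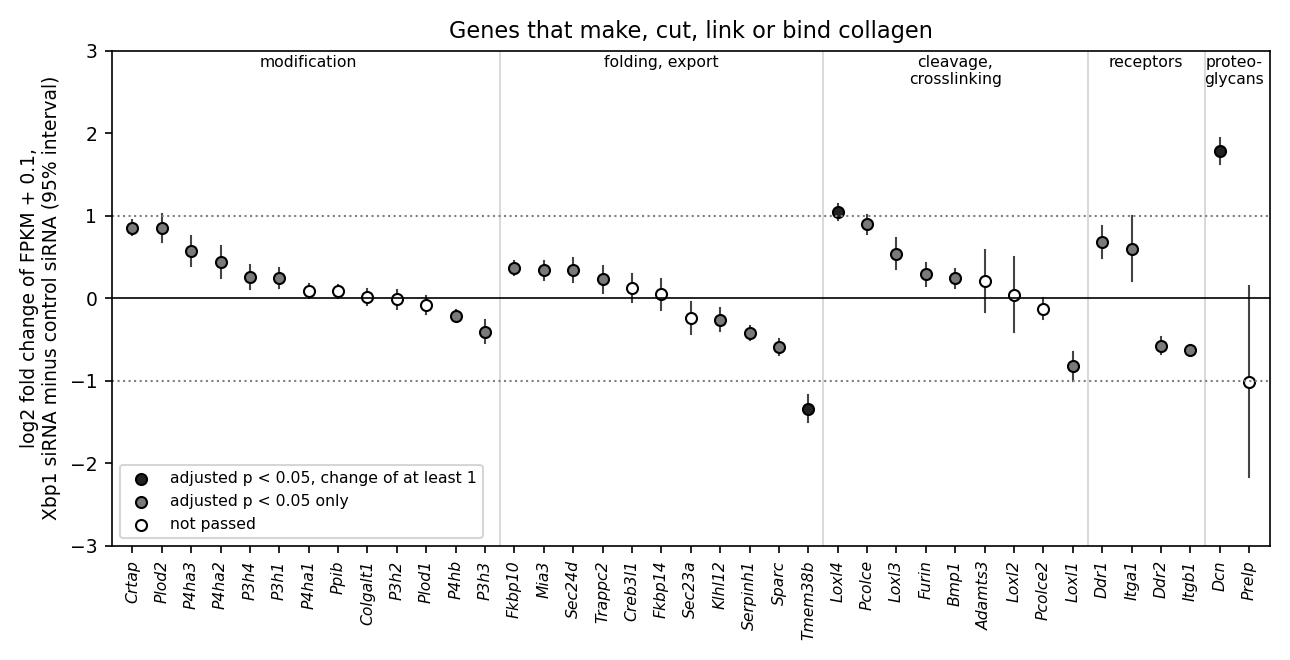
Log2 fold change of FPKM + 0.1 of the 39 genes tested in 5 lists around collagen, Xbp1 siRNA minus control siRNA, with 95% intervals from limma and dotted lines at the fold limit of 1. Black points are called (Loxl4, Dcn and Tmem38b), grey points passed by adjusted p alone and white points did not pass. Each list but that of the proteoglycans holds passing genes on both sides of 0.

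Of 13 cell type markers tested, 7 passed by adjusted p, beside 40.4% of all rows. None of the ovarian markers *Amh*, *Inha* and *Star* passed, nor did the germ cell marker *Ddx4* (limma adjusted p = 0.339). Of the 6 epithelial markers looked for, 4 were matched. *Epcam* rose from 1.82 ± 0.105 to 4.72 ± 0.644 FPKM (n = 3, SD), and *Krt18* and *Krt19* were listed at 0. *Cdh1* had 0.223, 0.0296 and 0.142 FPKM against 0.353, 0.397 and 0.551 FPKM, and passed narrowly (limma adjusted p = 0.0489). The summed level of the epithelial list was between 1.83 and 2.16 FPKM with control siRNA and between 4.59 and 5.79 FPKM after silencing. Of the 6 mesenchymal markers, *Vim*, *Pdgfrb* and *Zeb1* fell, *Fn1* rose, *Thy1* was listed at 0, and *S100a4* had 24.0 FPKM against 19.2 FPKM and did not pass (limma adjusted p = 0.106). The list, most of which is *Vim*, summed to between 429 and 452 FPKM in the controls and between 355 and 381 FPKM after silencing. Of the immune markers reported here, *Ptprc*, *Adgre1* and *Cd3e* were listed at 0 in every library, and *Cd68*, a lysosomal protein abundant in macrophages, rose from 5.62 ± 0.494 to 7.79 ± 0.919 FPKM (n = 3, SD). Of 4 endothelial markers, *Cdh5* was listed at 0 in every library, *Kdr* and *Tek* had means under 0.1 FPKM, and *Pecam1* had 0.268, 0.0472 and 0.209 FPKM against 0, 0.0452 and 0.0382 FPKM and did not pass (limma adjusted p = 0.165). The part of the marker shifts in the collagen results was not tested, and in bulk samples fewer cells of a kind and less RNA per cell cannot be told apart.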

How the data were processed

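RNA of CHO-T cells was made into 6 stranded mRNA libraries, 3 for each siRNA, and sequenced by the authors. They deposited FPKM values, 1 library per file, as read from the file headers; the submitters' processing notes name HISAT2 2.1.0 and Cuffdiff 2.2.1. The genome build, the annotation and the strand setting are not given in the sources used here. Genes are therefore named by symbol, without coordinates or sequences. Chains that share sequence, overlapping genes and antisense genes may share reads.

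FPKM values are not counts, so the DESeq2 test of the study's methods was replaced by limma 3.58.1 in R 4.3.3 (lmFit, eBayes with trend) on log2(FPKM + 0.1), for rows with a mean of at least 0.1 FPKM, with Benjamini-Hochberg adjustment over all of them. The limits of an adjusted p of 0.05 and a log2 fold change of 1 follow those methods. The fit was tested on simulated data. Of 3065 rows with a mean up to 0.8 FPKM and at least 4 libraries above 0, 74.6% had values on whole multiples of a common step within 0.002 reads plus 2e-05 for each read of the highest library, or within 0.03 reads where no library had more than 12, and the largest step that fits was taken as 1 read, so reads given are the smallest numbers that fit; otherwise the depth is unknown. Reads cover counting error only. The members, lists and limits were chosen with earlier results of these data known. Named are all collagen genes, called genes of the 5 lists and the 2 most abundant of each; further list members were named after their values were seen. Alternatives were other pseudocounts (1 and 0.01), a filter at 1 FPKM or none, median-ratio scaling, quantile normalization, no trend, a replicate block, no fold limit and each library left out. Python 3.11.15 with pandas 2.3.3 and matplotlib 3.10.9 was used for tables and plots.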

Additional observations from a re-analysis of the deposited data

How the results depend on the processing

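Of 150 log2 fold changes recomputed for the 11 collagen genes, 141 had the direction of the reported value and were called, or not, as it was. *Col27a1* lost its call in 4 of them and *Col8a1* in 1, *Col7a1* gained one in 2, and *Col8a2*, whose value is near 0, ranged from −0.33 to 0.01 when 1 library was left out, turning to 0.0099 without control replicate 2 and to 0.013 without *Xbp1* siRNA replicate 2. With a pseudocount of 1, 1 collagen gene was called higher, and over all rows 114 higher and 205 lower, since a larger pseudocount shrinks the changes of weak genes. *Col17a1* then had a log2 fold change of −0.35 and *Col20a1* of −0.25. When rows under a mean of 1 FPKM were dropped, 1 collagen gene and 242 of all rows were called higher, and *Col27a1* was then not tested. After quantile normalization 1 collagen gene was called lower, and *Itgb1* and *Serpinh1* had log2 fold changes of −0.41 and −0.27. Without the fold limit, 4 collagen genes were higher and 4 lower, 18 genes of the 5 lists higher and 9 lower, and 2898 of all rows higher and 2904 lower.

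Leaving out 1 library at a time gave 1 to 3 collagen genes called higher, and 2 called lower each time. By adjusted p alone it gave 3 to 4 collagen genes higher and 2 to 4 lower, where *Col16a1* and *Col17a1* were those lost among the lower ones. The 5 lists gave 2 genes higher and 1 lower, and over all rows 329 to 380 were higher and 346 to 369 lower. The summed collagen FPKM differed by −54.7 to −52.2 and the share of *Col8a1* by −14.4 to −13.4 percentage points. With the replicate number as a block, 2 collagen genes were called higher and 2 lower, and 363 and 353 of all rows; *Col17a1* then had an adjusted p of 0.0568 (limma). Deviations of libraries with the same replicate number correlated across genes with r of −0.029, −0.027 and −0.012. This correlation weighs all tested rows alike, weak ones included, so it cannot show whether the replicate numbers pair the libraries. With the block the standard error of *Col16a1* was 0.061 instead of 0.083, and that of *Col4a1* 0.139 instead of 0.124. The depth behind genes under 0.1 FPKM, at most 8 reads a library where reads were recovered, limits what can be said of 15 of the 33 genes.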

Other observations

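*Col4a3bp*, the row set aside because it encodes the ceramide transfer protein and not a collagen, had 16.1, 22.1 and 18.7 FPKM with control siRNA and 15.6, 16.9 and 16.2 FPKM with *Xbp1* siRNA. The libraries overlapped, and its log2 fold change −0.21 did not pass (limma adjusted p = 0.173).

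A few genes of the 5 lists were too weak to be tested. *Fmod*, a proteoglycan of tendon and cartilage, was listed at 0 in the 3 control libraries and at 0.117, 0.163 and 0.0344 FPKM in the libraries with *Xbp1* siRNA. *Itga2*, an alpha chain that binds collagen, had 0.0793, 0.0281 and 0.0270 FPKM with control siRNA and 0.0258, 0 and 0 FPKM with *Xbp1* siRNA.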
